A study of Mus musculus with 6 samples.

Results

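ERV1 elements are endogenous retroviruses related to the gammaretroviruses, and their RNA was followed through an eCLIP experiment on mouse Gtsf1. Members were all features that the deposited annotation places in the LTR family ERV1, by name and not by any measured value. They comprised 13838 genomic copies with a read or a fraction of one, out of 1753368 such features in the series, and 6526 of the copies summed to at least 1 read over the 6 libraries. Copies of the same subfamily were summed, which gave 134 ERV1 subfamilies. A mean of at least 1 RPM (the read count normalised to all reads of its library) over the 4 crosslinked libraries was reached by 55 subfamilies and by 36 single copies, and these were tested. The 55 subfamilies held 94.1% of the ERV1 reads of the crosslinked libraries, and the other 79 were under the minimum. The 36 copies came from 18 subfamilies and held 23.7% of those reads.

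In eCLIP, ultraviolet light joins RNA to the protein it touches, the protein is purified and the attached RNA is sequenced. All 6 libraries came from P19 cells, a mouse embryonal carcinoma line, transiently transfected with mouse Gtsf1 that carried a C-terminal TEV-Strep tag and was driven by the EF-1alpha promoter of the vector pEF. Cells were collected 48 hours after transfection, and the lysates were treated with RNase I for 5 minutes before the tag was captured on MagStrep beads. Cells irradiated at 254 nm with 400 mJ gave the crosslinked pull-down (n = 2) and the crosslinked input (n = 2). Cells that were not irradiated gave a pull-down and an input without crosslinking (n = 1 each). Every group carried the tagged transgene, so the input is the reference for the pull-down, and no library without the tag is part of the design. The labels do not say whether libraries of the same number came from separate cultures, so p-values measure the spread between these libraries, which may be technical.

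An ERV1 provirus carries an internal part with the retroviral genes between 2 long terminal repeats (LTRs), which hold its promoter and its end-of-transcript signal. Most copies in the mouse genome have been reduced to a solitary LTR or a fragment. Gtsf1, also called Asterix, is a short protein with zinc fingers that acts with piRNAs, the small RNAs that direct a pathway which silences retrotransposons in the germ line, and male mice without it lose that silencing. In the deposited names, a subfamily ending in "int" is an internal part and all other subfamilies were counted as LTRs.

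The libraries held between 13168593 and 18418166 reads, so that 1 read was worth between 0.0543 and 0.0759 RPM. The Gtsf1 pre-mRNA feature reached 102 and 210 RPM in pull-downs from crosslinked cells, against 40.6 to 49.2 RPM in the other 4 libraries. All 8 markers of embryonal carcinoma cells that were looked up, among them Pou5f1 and Lin28a, were detected, with a summed level between 161 and 244 RPM in the inputs and between 103 and 191 RPM in the pull-downs. Markers of endoderm summed to between 0.517 and 1.56 RPM in the inputs and between 3.59 and 6.35 RPM in the pull-downs, with reads for 3 of 5 in the inputs and Sox17 and Afp at 0 there. The 5 fibroblast markers summed to between 0.919 and 2.64 RPM in the inputs and between 2.78 and 3.93 RPM in the pull-downs. Neural markers, with reads for all 5, summed to between 23.8 and 42.0 RPM in the inputs and between 13.7 and 35.6 RPM in the pull-downs. The part of these shifts in the results on ERV1 was not tested.

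As a family, ERV1 made up a larger share of the pull-downs than of the inputs, with and without crosslinking. Relative to the reads of all transposable elements, its share differed little in its mean between pull-downs and inputs. ERV1 reads were 0.0349% (95% Wilson interval 0.0340 to 0.0358) and 0.0341% (0.0333 to 0.0350) of all reads in the crosslinked inputs. In the crosslinked pull-downs they were 0.0458% (0.0447 to 0.0468) and 0.0469% (0.0459 to 0.0480). Both pull-downs were above both inputs. The mean was 0.0463% ± 0.00081 (SD, n = 2) in the pull-downs and 0.0345% ± 0.00052 (SD, n = 2) in the inputs, a ratio of 1.34. The two-sided exact permutation test gave p = 0.33, the smallest value that 2 libraries against 2 allow. The sources used here do not say whether PCR copies of a molecule were removed, and the intervals include no more than counting error.

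**Figure D1:**
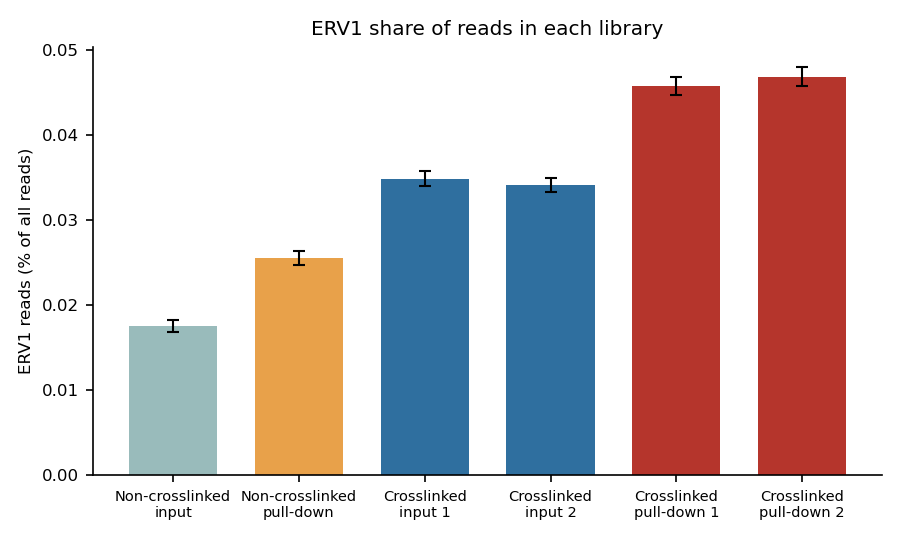
ERV1 reads as a percentage of all reads (vertical axis) in each of the 6 libraries (horizontal axis); bars start at 0 and black lines are 95% Wilson intervals for counting error. Both crosslinked pull-downs (0.0458% and 0.0469%) lie above both crosslinked inputs (0.0349% and 0.0341%), and the non-crosslinked pull-down (0.0255%) lies above its input (0.0175%).

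Without crosslinking, the share was 0.0175% (0.0168 to 0.0182) in the input and 0.0255% (0.0247 to 0.0264) in the pull-down, a ratio of 1.46. The crosslinked inputs held 1.97 times the share of the non-crosslinked input, 1.49 times with ribosomal RNA left out and 1.11 times per read of transposable elements. Per read of transposable elements, the crosslinked ratio was 0.978 (p = 1, exact permutation test) and the non-crosslinked ratio 1.05. Per annotated read the ratio was 1.43, and with ribosomal RNA left out it was 1.30. Internal parts contributed 51.8% of the ERV1 RPM of crosslinked inputs and 48.4% of that of crosslinked pull-downs.

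ERV1 reads were more frequent per read of ERVK, the family that includes the intracisternal A particles, in the pull-downs. With crosslinking, the inputs held 0.0509 and 0.0569 ERV1 reads per ERVK read, and the pull-downs held 0.0773 and 0.0939. These groups did not overlap, and the ratio of their means was 1.59 (p = 0.33, exact permutation test, the smallest possible). The non-crosslinked pair went from 0.0322 to 0.0653, a ratio of 2.03. The ratios against the other 2 large families were closer to 1. For ERV1 reads per ERVL read the pull-down to input ratio was 1.04 (p = 0.667, exact permutation test), and per ERVL-MaLR read it was 1.10 (p = 0.33). Without crosslinking they were 0.960 per ERVL read and 0.847 per ERVL-MaLR read, on the other side of 1.

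Among the 55 tested subfamilies, 13 (23.6%) rose in the crosslinked pull-downs over the crosslinked inputs, 1 (1.82%) fell and 41 were called in neither direction. Calls used edgeR's quasi-likelihood test with a Benjamini-Hochberg adjusted p under 0.05 over 39069 rows, which were all transposable element subfamilies as sums and all other features singly. Over all these rows, 5.33% were called higher and 2.71% lower. At an unadjusted p under 0.05, 26 ERV1 subfamilies were higher, against 7.71% of all rows, and 3 lower, against 14% of all rows. Of the 26, 6 had an input mean under 1 RPM, namely LTR48B, MURVY-int, RLTR41C, MER92B, MER34 and RLTR41A2. They passed the minimum through the pull-downs and could not have been tested without being higher there, so their part in these counts is a description. The median edgeR log2 ratio of the 55 was 0.43, with a range from -0.83 to 3.95, and the median of all rows was -0.21. Called higher in other families were 102 of 208 ERVK, 20 of 55 ERVL and 35 of 82 ERVL-MaLR subfamilies, and 306 of 677 subfamilies of all transposable elements. Both pull-downs stood above both inputs in 29 ERV1 subfamilies (10.2% of all rows) and below both in 12 (57.8% of all rows). Levels are not compared between subfamilies, because the files give no lengths.

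By element part, 4 of 12 internal subfamilies rose (33.3%) and none fell, and 9 of 43 LTR subfamilies rose (20.9%) and 1 fell. The 4 internal parts were MURVY-int, RLTR6-int, MuRRS-int and MuRRS4-int. Over all rows 5.33% rose and 2.71% fell, and over all transposable element subfamilies 45.2% rose and 0.886% fell. At an unadjusted p under 0.05, 7 internal parts were higher and none lower, and 19 LTR subfamilies were higher and 3 lower. Over all rows these unadjusted shares were 7.71% higher and 14% lower. The same background shares apply to the counts by list below. Of the 13 subfamilies that rose, LTR48B, MURVY-int and RLTR41C, 3 in all, had an input mean under 1 RPM and passed the minimum through the pull-downs, so they could not have been tested without being higher there. The other 10 had an input mean of at least 1 RPM.

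**Figure D2:**
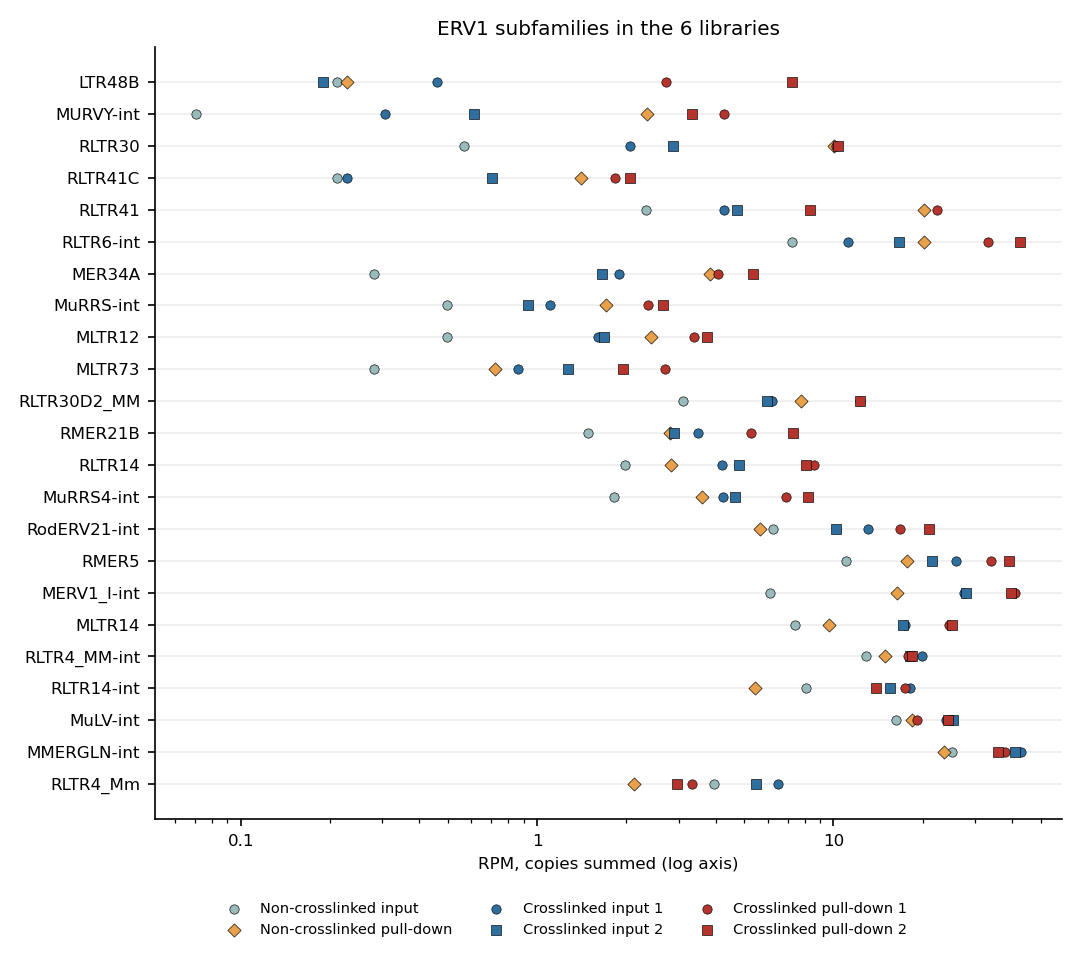
RPM summed over copies (horizontal log axis) in each of the 6 libraries for the 14 called ERV1 subfamilies and the 10 with the most reads, ordered by edgeR log2 ratio; circles and squares of one colour are the replicates. MURVY-int, RLTR30 and RLTR6-int show both pull-downs apart from both inputs, and RLTR4_Mm is the called subfamily whose pull-downs (3.34 and 2.97 RPM) lie below its inputs (6.50 and 5.47 RPM).

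VL30 elements are mouse retrotransposons whose RNA does not encode full retroviral proteins and can be packaged by leukaemia virus particles. Their internal part RLTR6-int rose in the pull-down, and their LTRs were not called. With crosslinking, RLTR6-int had 11.2 and 16.6 RPM in the inputs and 33.2 and 42.5 RPM in the pull-downs. The groups did not overlap, and the edgeR log2 ratio was 1.53 (SE 0.25, adjusted p = 0.0156). Without crosslinking it went from 7.27 RPM in the input to 20.2 RPM in the pull-down. The crosslinked ratio of means was 2.72 with all copies and 1.24 without the 5 copies of at least 1 RPM. Of these 5, RLTR6-int_dup431 and RLTR6-int_dup301, with nearly identical counts, had the most reads.

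The second internal part, MMVL30-int, had 6.94 and 4.89 RPM in the inputs and 9.24 and 7.44 RPM in the pull-downs, an edgeR log2 ratio of 0.59 (adjusted p = 0.161) that was not called, except with only transposable elements in the table (0.0411). Its leading copy MMVL30-int_dup795 had no read in any input and made up 36.4% of its pull-down RPM, and the ratio of means was 1.41 with it and 0.898 without it. The ratio without it is a description, since leaving out a copy without input reads can only lower a ratio. The LTR RLTR6_Mm had 2.16 and 2.28 RPM in the inputs and 1.90 and 1.95 RPM in the pull-downs. RLTR6B_Mm had 1.76 and 2.28 RPM in the inputs and 1.36 and 1.45 RPM in the pull-downs. Neither LTR was called, with edgeR adjusted p-values of 0.821 and 0.337, although the pull-downs of both lay below the inputs. Of the 4 tested VL30 subfamilies, 1 rose and none fell. Their summed RPM, with 1 untested subfamily included, was 2.05 times as high in the crosslinked pull-downs and 2.09 times as high in the non-crosslinked pull-down.

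MURVY elements are retroviruses amplified on the mouse Y chromosome, and their internal part rose in the pull-down. MURVY-int had 0.308 and 0.612 RPM in the inputs of crosslinked cells and 4.29 and 3.33 RPM in their pull-downs. The groups stood apart, with an edgeR log2 ratio of 3.17 (adjusted p = 0.00177, SE 0.30), and of 3.81 without crosslinked input 2. With an input mean of 0.460 RPM, it was tested only because its pull-downs were high. The inputs together held 16.6 reads. By counts the ratio was 8.06, with a counting interval from 4.83 to 14.3. The non-crosslinked pull-down stood at 2.36 RPM against 0.0707 RPM, a single read, in its input, a count ratio of 33.3 with an interval from 5.55 to 1358. The LTR MURVY-LTR had 2.3 and 2.32 RPM in the inputs and 2.17 and 2.59 RPM in the pull-downs. Its groups overlapped, and it was not called (edgeR log2 ratio 0.13, adjusted p = 0.765).

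The MuRRS list holds murine retrovirus-related sequences and their LTRs, and here too the internal parts rose. MuRRS-int had 1.10 and 0.931 RPM in the inputs and 2.37 and 2.67 RPM in the pull-downs, with an edgeR log2 ratio of 1.40 (adjusted p = 0.00655, SE 0.19). MuRRS4-int had 4.24 and 4.64 RPM in the inputs and 6.92 and 8.18 RPM in the pull-downs, with an edgeR log2 ratio of 0.87 (adjusted p = 0.0286, SE 0.17). In both, the pull-downs were above the inputs without overlap. The call on MuRRS4-int was lost when crosslinked input 1 (edgeR adjusted p = 0.110) or crosslinked pull-down 2 (0.0842) was left out, and with DESeq2 (0.0903).

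None of the 3 tested MuRRS-related LTRs was called with all libraries and rows. LTRIS_Mus had 5.32 and 4.06 RPM in the inputs and 3.76 and 3.16 RPM in the pull-downs (edgeR log2 ratio -0.34, adjusted p = 0.359). LTRIS2 had 5.19 and 4.77 RPM in the inputs and 3.26 and 3.82 RPM in the pull-downs (edgeR log2 ratio -0.39, adjusted p = 0.229). LTRIS4A had 1.55 and 1.74 RPM in the inputs and 4.82 and 2.40 RPM in the pull-downs (edgeR log2 ratio 1.23, adjusted p = 0.0950). LTRIS4A was called higher without crosslinked input 2 (adjusted p = 0.0297), without crosslinked pull-down 2 (0.00163) and with only transposable elements in the table (0.0238). The pull-downs lay below the inputs for the first pair of LTRs and above them for the third. A single copy, LTRIS4A_dup41, made up 80.7% of the pull-down RPM of LTRIS4A, and without it the ratio of means was 0.696.

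Murine leukaemia virus relatives gave the one subfamily that fell. RLTR4_Mm, their LTR, had 6.50 and 5.47 RPM in crosslinked inputs and 3.34 and 2.97 RPM in crosslinked pull-downs. Both pull-downs lay below both inputs, the edgeR log2 ratio was -0.83 (SE 0.16, adjusted p = 0.0321), and the non-crosslinked pair went from 3.96 to 2.12 RPM. The ratio of means was 0.527 with and 0.533 without the leading copy, which held 7.18% of the input RPM and 6.22% of the pull-down RPM. Other copies were not left out in turn. The call did not hold with TMM factors (log2 ratio -0.62, edgeR adjusted p = 0.0541) or with DESeq2 (log2 ratio -0.63, adjusted p = 1.0). It was also lost without crosslinked input 1 (edgeR adjusted p = 0.0925), without crosslinked pull-down 1 (0.0610) and without crosslinked pull-down 2 (0.116).

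The internal parts of the same viruses were not called. MuLV-int had 23.9 and 25.3 RPM in the inputs and 19.1 and 24.4 RPM in the pull-downs, which overlapped (edgeR log2 ratio -0.09, adjusted p = 0.818). RLTR4_MM-int had 19.8 and 18.2 RPM in the inputs and 17.9 and 18.5 RPM in the pull-downs, which overlapped too (edgeR log2 ratio 0.03, adjusted p = 0.934). The summed RPM of the 3 subfamilies changed by a ratio of 0.868 in RPM, and the direction depended on the denominator, with 0.925 per annotated read, 0.998 without ribosomal RNA, 1.07 with TMM factors and 0.634 per read of transposable elements.

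GLN elements, a family of mouse retroviruses named after the glutamine tRNA that primes their reverse transcription, had the ERV1 subfamily with the most reads. MMERGLN-int had 42.9 and 41.0 RPM in crosslinked inputs and 37.9 and 35.8 RPM in crosslinked pull-downs (edgeR log2 ratio -0.10, adjusted p = 0.752). Its LTR, MMERGLN_LTR, had 1.55 and 1.98 RPM in the inputs and 1.37 and 1.28 RPM in the pull-downs (edgeR log2 ratio -0.33, adjusted p = 0.518). In both subfamilies the pull-downs lay below the inputs in RPM, and neither was called. The summed ratio was 0.874 in RPM, 0.635 per read of transposable elements and 1.07 with TMM factors, so its direction depended on the denominator as for the leukaemia virus relatives.

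Of 17 tested LTRs and internal parts in the remaining RLTR group, which are rodent elements, 4 rose and none fell. RLTR30 had 2.06 and 2.88 RPM in the inputs and 10.2 and 10.3 RPM in the pull-downs, with an edgeR log2 ratio of 2.14 (adjusted p = 0.00158, SE 0.19). RLTR41C had 0.229 and 0.706 RPM in the inputs and 1.83 and 2.06 RPM in the pull-downs, with an edgeR log2 ratio of 2.13 (adjusted p = 0.0201, SE 0.37), and of 3.17 without crosslinked input 2. Its input mean of 0.467 RPM was under the minimum. These pull-downs stood clear of the inputs in each case. RLTR30D2_MM had 6.22 and 5.95 RPM in the inputs and 12.3 RPM in each pull-down (edgeR log2 ratio 1.10, adjusted p = 0.00558). RLTR14 had 4.21 and 4.80 RPM in the inputs and 8.59 and 8.09 RPM in the pull-downs (edgeR log2 ratio 0.97, adjusted p = 0.0125), a call lost without crosslinked input 1 (adjusted p = 0.0629). Its internal part RLTR14-int was not called, with 18.2 and 15.5 RPM in the inputs, 17.4 and 13.9 RPM in the pull-downs and an edgeR log2 ratio of -0.02 (adjusted p = 0.967).

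RLTR41 was not called, and its pull-downs lay far from each other. It had 4.27 and 4.73 RPM in the inputs and 22.3 and 8.31 RPM in the pull-downs (edgeR log2 ratio 1.85, SE 0.44, adjusted p = 0.0580). Both pull-downs were above both inputs, and the ratio of means was 3.40 with and 1.02 without its 3 copies of at least 1 RPM. Those 3 had input means of 0.168 to 0.173 RPM and reached the minimum through the pull-downs, so the lower ratio follows by construction. RLTR41 was called higher in 8 of 15 alternative settings, among them TMM factors (edgeR adjusted p = 0.0488), DESeq2 (0.000343) and leaving out any crosslinked library in turn (0.000285 to 0.0247). Its log2 ratio was 0.99 without crosslinked pull-down 1, the higher one. The 2 copies RLTR41_dup52 and RLTR41_dup683 had identical counts in all 6 libraries.

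Among subfamilies named LTR and a number, LTR48B rose. It had 0.458 and 0.190 RPM in the inputs and 2.72 and 7.23 RPM in the pull-downs, with the largest log2 ratio of the 55, 3.95 (SE 0.69, edgeR adjusted p = 0.0199). The ratio was 4.54 without crosslinked input 1 and 3.08 without crosslinked pull-down 2. Its input mean of 0.324 RPM was under the minimum, so it entered the test through its pull-downs. The other 4 tested of this list were not called, with edgeR log2 ratios between -0.04 (LTR65) and 0.43 (LTR78). Of 7 tested MER subfamilies, MER34A rose, with 1.89 and 1.66 RPM in the inputs and 4.06 and 5.37 RPM in the pull-downs (edgeR log2 ratio 1.52, adjusted p = 0.00754). MER92B had 0.773 and 0.489 RPM in the inputs and 1.24 and 4.04 RPM in the pull-downs, an edgeR log2 ratio of 2.11 with an SE of 0.65 that was not called (adjusted p = 0.123). Its input mean of 0.631 RPM was under the minimum too, and its pull-downs lay far from each other.

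The last list gathers 10 further subfamilies, of which 3 rose and none fell. MLTR12 had 1.60 and 1.68 RPM in the inputs and 3.39 and 3.75 RPM in the pull-downs (edgeR log2 ratio 1.21, adjusted p = 0.00652). RMER21B had 3.49 and 2.90 RPM in the inputs and 5.26 and 7.29 RPM in the pull-downs (edgeR log2 ratio 1.06, adjusted p = 0.0342), and its call was lost without crosslinked pull-down 2 (adjusted p = 0.0722). MLTR73 had 0.859 and 1.28 RPM in the inputs and 2.70 and 1.95 RPM in the pull-downs (edgeR log2 ratio 1.20, adjusted p = 0.0469). The call on MLTR73 was lost without crosslinked input 1 (adjusted p = 0.0797), without crosslinked pull-down 1 (0.126) and with DESeq2 (0.118).

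In 4 of the ERV1 subfamilies with the most reads, the pull-downs lay above the inputs and the adjusted p was just over the threshold. MERV1_I-int had 27.6 and 28.1 RPM in the inputs and 41.0 and 39.7 RPM in the pull-downs (edgeR log2 ratio 0.63, adjusted p = 0.0578). MLTR14 had 17.4 and 17.2 RPM in the inputs and 24.5 and 25.2 RPM in the pull-downs (edgeR log2 ratio 0.61, adjusted p = 0.0577). Replicates of MERV1_I-int and of MLTR14 lay close together. RMER5 had 25.9 and 21.4 RPM in the inputs and 33.9 and 39.0 RPM in the pull-downs (edgeR log2 ratio 0.72, adjusted p = 0.0632). RodERV21-int, the internal part of a rodent retrovirus, had 13.0 and 10.2 RPM in the inputs and 16.8 and 21.0 RPM in the pull-downs (edgeR log2 ratio 0.79, adjusted p = 0.0657). All 4 were called higher with TMM factors (edgeR adjusted p from 0.0232 to 0.0369), with ribosomal RNA left out of the library sizes (0.0333 to 0.0385) and with only transposable elements in the table (0.00106 to 0.00710). Without crosslinked pull-down 1, RMER5 (0.0471) and RodERV21-int (0.0294) were called as well. The 10 subfamilies with the most reads held 58.3% of ERV1 RPM in the inputs and 57.4% in the pull-downs of crosslinked cells.

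The non-crosslinked pair shows which of these differences also appear when no covalent link was made. All 13 subfamilies that rose also had more RPM after pull-down than before it in the non-crosslinked pair, and 9 of them at least 2-fold, on the log2(RPM + 0.1) scale. Among all 2082 rows called higher, 94.7% were higher and 78.5% at least 2-fold higher in that pair, so the shares of the 13 stood near this background. LTR48B rested there on 0.212 against 0.228 RPM, which is 3 reads in each library. Of all 55, 33 were higher and 15 at least 2-fold higher, against 15% and 5.75% of all rows. The median non-crosslinked log2 ratio was 0.27, against -0.81 over all rows, and the median crosslinked log2 ratio on the same scale was 0.33, against -0.28. With 1 library in each non-crosslinked group, these ratios have no replicate check.

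**Figure D3:**
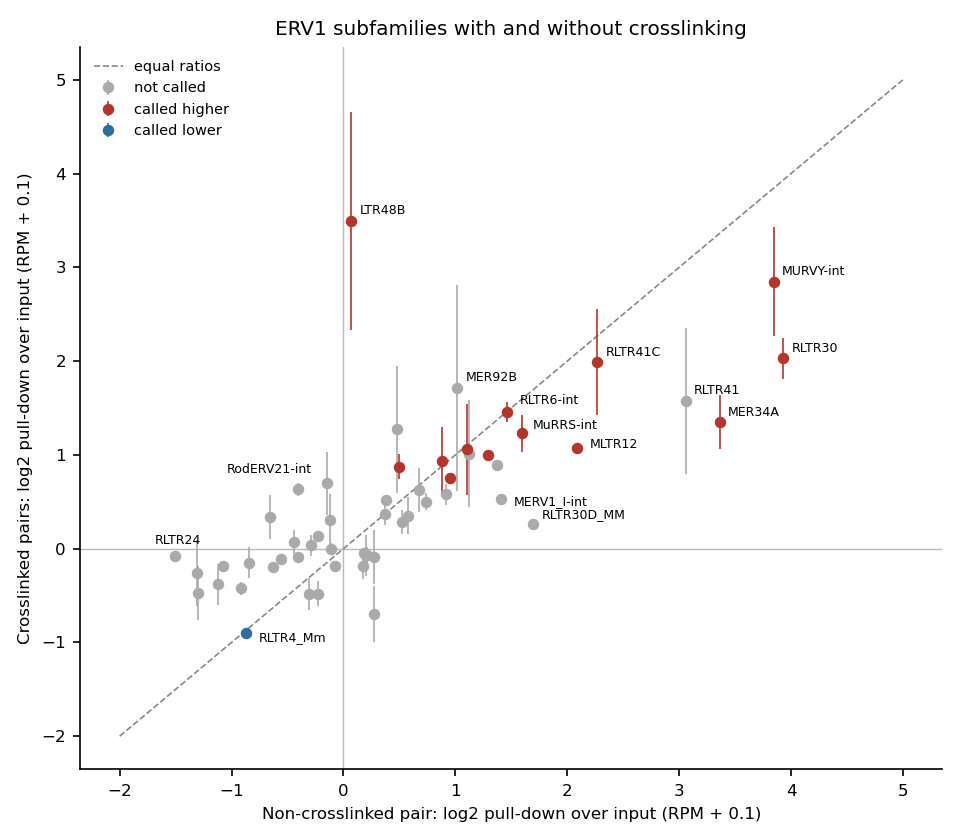
Log2 ratio of pull-down over input (RPM + 0.1) in the non-crosslinked pair (horizontal axis) and in the crosslinked libraries (vertical axis) for the 55 tested ERV1 subfamilies; points are the mean of the 2 same-numbered pairs, vertical lines run from one pair to the other, and colours mark edgeR calls. The 13 red points all lie to the right of 0, LTR48B lies far above the dashed line of equal ratios, and RLTR30, MER34A and MURVY-int lie below it. The tests behind the calls did not take library numbers as pairing.

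The difference between the crosslinked and the non-crosslinked ratio was tested in 1 edgeR model over all 6 libraries, in which the single non-crosslinked libraries are assumed to vary like the crosslinked ones. No ERV1 subfamily passed (0 of 55, smallest adjusted p = 0.311), nor did any of the 39069 rows (0% called), which does not show that the ratios were equal. At an unadjusted p under 0.05, RLTR24 had the higher ratio with crosslinking (12% of all rows did) and 4 subfamilies, RLTR30, MER34A, MERV1_I-int and MLTR12, had the lower one (2.1% of all rows). RLTR24 had 4.10 and 3.91 RPM in the crosslinked inputs and 3.92 and 3.64 RPM in their pull-downs, while the non-crosslinked pair went from 2.33 to 0.759 RPM. MER34A went from 0.283 to 3.83 RPM without crosslinking, and RLTR30 from 0.565 to 10.1 RPM. Both crosslinked pairs exceeded the non-crosslinked ratio in 22 of the 55 subfamilies, against 70.7% of all rows, and both fell short of it in 24, against 15.6% of all rows. These counts match libraries by their number, which the tests did not take as pairing.

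At the level of single copies, 16 of 36 tested ERV1 copies were called higher and none lower, beside 6.41% higher and 3.47% lower among all 39872 features tested singly. At an unadjusted p under 0.05, edgeR put 20 copies higher, against 8.42% of these features, and 3 lower, against 14.4%, and DESeq2 called none lower. This count describes the members and supports nothing by itself, since 17 of the 36 had an input mean under 1 RPM, passed the minimum through the pull-downs and held 13 of the calls. Among the 19 copies with an input mean of at least 1 RPM, 3 were called, namely RLTR6-int_dup431, RLTR6-int_dup301 and MERV1_I-int_dup33. Copies can share reads, as the authors' files split a read over the features it matches. Counts were identical in 6 of the 36 copies to those of another, and RLTR6-int_dup431 and RLTR6-int_dup301 were nearly so.

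**Figure D4:**
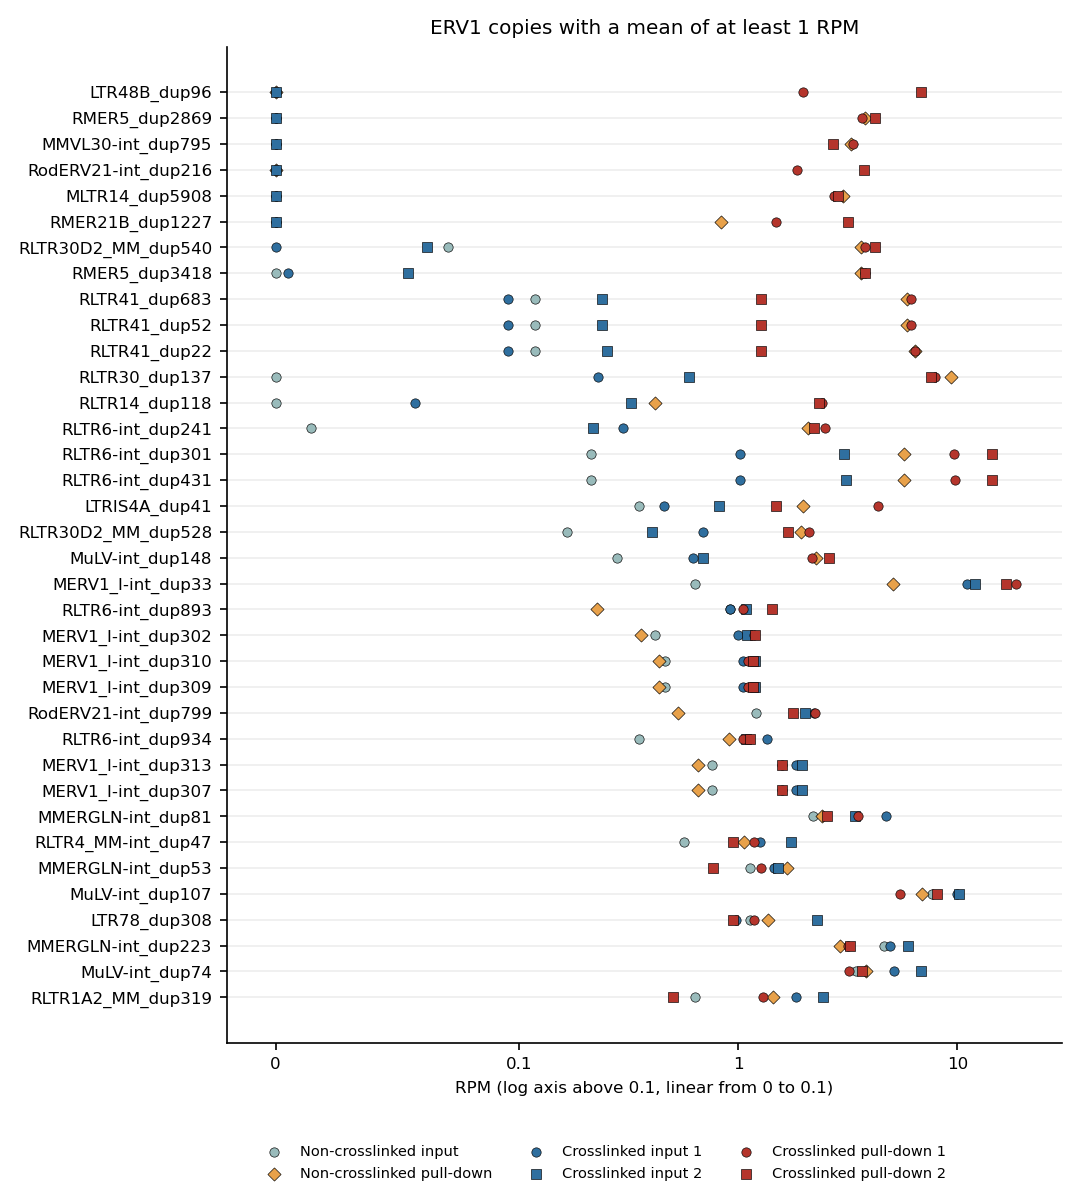
RPM in each of the 6 libraries (horizontal axis, logarithmic above 0.1 and linear below) for the 36 tested ERV1 copies, ordered by edgeR log2 ratio; symbols are as named in the legend. The 6 copies at the top have every input at 0, and for 3 of them (RMER5_dup2869, MMVL30-int_dup795 and MLTR14_dup5908) the non-crosslinked pull-down lies beside the crosslinked ones, while RMER21B_dup1227 has 0.835 RPM there.

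Among the copies with the most reads were the VL30 copies RLTR6-int_dup431 and RLTR6-int_dup301, both called higher. RLTR6-int_dup431 had 1.02 and 3.10 RPM in the inputs and 9.74 and 14.4 RPM in the pull-downs (edgeR log2 ratio 2.62, SE 0.45, adjusted p = 0.0150). Its log2 ratio was 3.65 without crosslinked input 2 and 2.04 without crosslinked input 1, with the call kept. Its non-crosslinked pair went from 0.212 to 5.71 RPM, so the pull-down was above the input with and without crosslinking. MERV1_I-int_dup33 went from 0.636 to 5.09 RPM without crosslinking, a ratio of 8.00, against a ratio of means of 1.53 with crosslinking. In the crosslinked libraries it had 11.1 and 11.97 RPM in the inputs and 18.5 and 16.7 RPM in the pull-downs (edgeR log2 ratio 0.70, SE 0.16, adjusted p = 0.0419). That call was lost in 10 of 15 alternative settings, among them DESeq2 (adjusted p = 0.114) and leaving out any of the 4 crosslinked libraries in turn (0.0535 to 0.326). RLTR30_dup137 had 0.229 and 0.597 RPM in the inputs and 7.87 and 7.61 RPM in the pull-downs (edgeR log2 ratio 4.28, adjusted p = 0.000429, and 5.13 on the log2 scale without crosslinked input 2), and the same copy went from 0 to 9.38 RPM without crosslinking. Its input mean was 0.413 RPM, so its pull-downs alone brought it into the test.

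Among the copies of the leukaemia virus relatives 1 was called, and differences between copies were not tested. MuLV-int_dup148 had 0.623 and 0.688 RPM in the inputs and 2.18 and 2.60 RPM in the pull-downs (edgeR log2 ratio 1.91, adjusted p = 0.00237). MuLV-int_dup107 had 9.96 and 10.2 RPM in the inputs and 5.47 and 8.03 RPM in the pull-downs (edgeR log2 ratio -0.49, adjusted p = 0.245). MuLV-int_dup74 had 5.16 and 6.83 RPM in the inputs and 3.19 and 3.68 RPM in the pull-downs (edgeR log2 ratio -0.72, adjusted p = 0.0936). The first rose, with an input mean of 0.656 RPM and a place in the test that it owed to its pull-downs, while the other 2 lay below their inputs without being called. MuLV-int_dup74 was called lower with unannotated reads in the library sizes (adjusted p = 0.0492) and without crosslinked input 1 (0.0292). The GLN copy MMERGLN-int_dup223 had 4.91 and 5.94 RPM in the inputs and 3.16 and 3.24 RPM in the pull-downs (edgeR log2 ratio -0.67, adjusted p = 0.0673, or 0.0382 with unannotated reads in the library sizes and 0.0377 with limma), and MMERGLN-int_dup81 had 4.73 and 3.42 RPM in the inputs and 3.51 and 2.54 RPM in the pull-downs (adjusted p = 0.430). RodERV21-int_dup799 was not called, with 2.20 and 2.02 RPM in the inputs and 2.24 and 1.79 RPM in the pull-downs (edgeR log2 ratio 0.03, adjusted p = 0.955).

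Of the 36 copies, 6 had no read in any input, and all 6 were called higher, which the minimum had all but fixed: with inputs at 0, only a pull-down mean of at least 2 RPM could reach it. Their levels and bounds are therefore given as a description. Folds for these are lower bounds, from the mean of the pull-downs against 3 reads in each input library, a mean of 0.167 RPM. In 4 of them the non-crosslinked pull-down held reads as well. RMER5_dup2869 had 3.66 and 4.21 RPM after pull-down with crosslinking and 3.80 RPM without, at least 23.5-fold and at least 17.9-fold over input. MMVL30-int_dup795 had 3.35 and 2.72 RPM with crosslinking and 3.27 RPM without, at least 18.1-fold and at least 15.4-fold. MLTR14_dup5908 had 2.73 and 2.84 RPM with crosslinking and 3.00 RPM without, at least 16.7-fold and at least 14.1-fold. RMER21B_dup1227 had 1.49 and 3.18 RPM with crosslinking and 0.835 RPM without, at least 13.95-fold and at least 3.94-fold, with a crosslinked bound of 8.90-fold without pull-down 2. The first 3 of these had nearly the same pull-down level with and without crosslinking.

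The other 2 copies had reads in the crosslinked pull-downs alone. LTR48B_dup96 had 1.98 and 6.86 RPM there and 0 in the other 4 libraries, at least 26.4-fold over input in the mean and at least 11.8-fold without pull-down 2. Its call was lost with TMM factors (edgeR adjusted p = 0.0510). RodERV21-int_dup216 had 1.86 and 3.73 RPM there and 0 elsewhere, at least 16.7-fold over input in the mean and at least 11.1-fold without pull-down 2. In reads these were 31.8 and 108.5 for LTR48B_dup96 and 30.0 and 59.0 for RodERV21-int_dup216. A count of 0 in the non-crosslinked pull-down allows up to 0.228 RPM. Against that limit the mean of the crosslinked pull-downs was at least 19.4-fold higher for the first copy and at least 12.3-fold for the second, and the lower of the pull-downs, number 1, at least 8.67-fold and at least 8.17-fold. The test of the difference between the crosslinked and the non-crosslinked ratio cannot be estimated for them, because both non-crosslinked libraries are at 0.

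For 9 of the 13 subfamilies that rose, a single leading copy, the one with the highest mean over the 4 crosslinked libraries, made up more than 25% of the pull-down RPM. The ratio of mean pull-down to mean input was therefore also taken without that copy. This is a description, since the copy was chosen by its level in these same libraries. LTR48B went from 15.4 to 1.73 without LTR48B_dup96, which made up 88.7% of its pull-down RPM. RLTR30 went from 4.15 to 1.22 without RLTR30_dup137 (75.5%). In both subfamilies most of the pull-down RPM came from 1 annotated copy. RLTR41C went from 4.17 to 2.02 without RLTR41C_dup2 (51.5%), MLTR12 from 2.17 to 1.29 without MLTR12_dup473 (40.6%), and RMER21B from 1.96 to 1.23 without RMER21B_dup1227 (37.2%). MER34A went from 2.66 to 1.83 without MER34A_dup529 (31.2%), RLTR30D2_MM from 2.02 to 1.37 without RLTR30D2_MM_dup540 (32.4%), and RLTR14 from 1.85 to 1.38 without RLTR14_dup118 (28.5%).

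In 4 other subfamilies the leading copy held less than 25% of the pull-down RPM, and the ratio moved little without it. MURVY-int had a ratio of 8.29 with and 7.33 without its leading copy, MuRRS-int 2.48 and 2.79, MuRRS4-int 1.70 and 1.64, and MLTR73 2.18 and 2.11. RLTR6-int had a ratio of 2.72 for all copies, 2.18 without the leading copy and 1.24 without its 5 copies of at least 1 RPM. Without crosslinking, the ratio was 2.78 for all copies and 1.00 without those 5. The leading copy, RLTR6-int_dup431, had nearly the same counts as RLTR6-int_dup301, which the ratio of 2.18 still includes. The 5 were chosen by their level in these same libraries. Of them, RLTR6-int_dup241 (input mean 0.257 RPM) reached the minimum through its pull-downs.

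**Figure D5:**
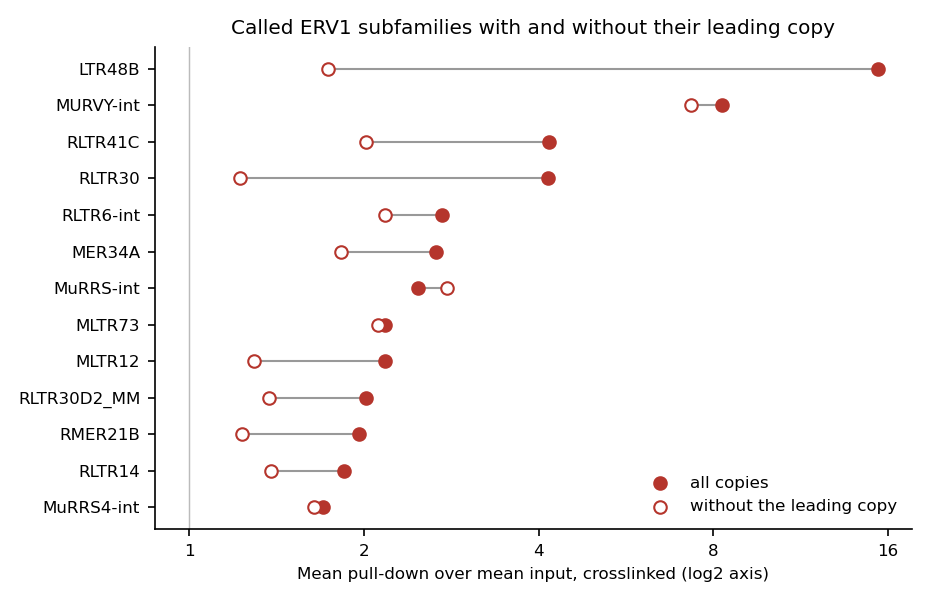
Ratio of mean pull-down RPM to mean input RPM in the crosslinked libraries (horizontal log2 axis) for the 13 ERV1 subfamilies that rose, with all copies (filled) and without the leading copy (open). LTR48B goes from 15.4 to 1.73 and RLTR30 from 4.15 to 1.22, while MURVY-int stays above 7 and MuRRS-int goes from 2.48 to 2.79.

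Internal and LTR reads of the same element were set against each other within each library, which removes library scaling. For VL30, RLTR6-int reads per RLTR6_Mm read were 5.15 and 7.28 in crosslinked inputs and 17.5 and 21.7 in crosslinked pull-downs, a ratio of 3.15 (p = 0.33, exact permutation test, the smallest possible). The non-crosslinked pair went from 4.42 to 19.6. The nearly identical copies RLTR6-int_dup431 and RLTR6-int_dup301 were not left out of these counts. For leukaemia virus relatives, MuLV-int reads per RLTR4_Mm read were 3.68 and 4.63 in the inputs and 5.73 and 8.22 in the pull-downs, a ratio of 1.68 (p = 0.33, exact permutation test), and 2.11 without crosslinking. Both elements had more internal reads per LTR read in every pull-down than in any input. MURVY had 0.134 and 0.263 internal reads per LTR read in the inputs and 1.97 and 1.29 in the pull-downs, a ratio of 8.20 (p = 0.33, exact permutation test), and went from 0.0556 to 2.30 without crosslinking, a ratio of 41.4. As MURVY-int reached the minimum through its pull-downs, this ratio is a description and no further support.

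RLTR1B-int reads per RLTR1B read had the same order, with 1.94 and 1.90 in the inputs and 3.16 and 2.14 in the pull-downs (ratio 1.38, p = 0.33, exact permutation test), and 2.96 times as many without crosslinking. RLTR14-int reads had the opposite order. RLTR14-int reads per RLTR14 read were 4.31 and 3.24 in the inputs and 2.02 and 1.72 in the pull-downs, a ratio of 0.496 (p = 0.33, exact permutation test), and 0.470 without crosslinking. GLN elements had 27.6 and 20.7 internal reads per LTR read in the inputs and 27.6 and 28.0 in the pull-downs, which overlapped (ratio 1.15, p = 0.667, exact permutation test), while the non-crosslinked pair went from 13.6 to 29.7. MERV1_I-int reads per MERV1_LTR read were 26.8 and 28.7 in the inputs and 28.1 and 24.2 in the pull-downs, which overlapped as well (ratio 0.941, p = 0.667, exact permutation test), and the non-crosslinked pair went from 9.61 to 12.7. These pairs of internal part and LTR were matched by name and chosen after values were seen.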

How the data were processed

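Reads of eCLIP libraries were counted per annotated feature by the authors. Per the submitters' processing notes, bcl2fastq 2.19, STAR 2.5.2b, bedtools 2.29.0 and the build mm10 were used, in roles that are not given in the sources used here, and neither are the annotation set, strand use or removal of PCR duplicates. Per the file values, the deposited expected counts split reads over features they match, and the deposited RPM values are the same counts normalised to all reads of the library, unannotated reads (6.99% to 14.4%) included. A further deposited table gives the authors' enrichment ratio per feature, by a formula not stated there.

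Rounded expected counts of the 2 crosslinked pull-downs were set against those of the 2 crosslinked inputs in edgeR (version 4.0.16, R version 4.3.3; quasi-likelihood), with annotated reads as library sizes and no further factors, over rows with a mean of at least 1 RPM (39069 with subfamilies summed, 39872 as single features). Fits were tested on simulated data. Log2 ratios used RPM + 0.1. The groups share replicate numbers, but deviations of same-numbered libraries correlated at 0.117 over 39069 rows in only 2 pairs, so numbers were not taken as pairing. Alternatives were TMM factors, DESeq2 1.42.0, limma 3.58.1, other library sizes, minimums and pseudocounts, a replicate block, all 6 libraries, only transposable elements, identical rows once, and each crosslinked library left out.

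Members, lists and tests were chosen with earlier results of these data known. The rule named the 10 subfamilies and 10 copies with the most reads, up to 5 called each way by ratio, and every tested member of the VL30, MuLV, MuRRS, GLN and MURVY lists. Other named subfamilies and copies, the ratios without leading copies, the internal to LTR pairs and the list ratios by denominator were chosen after values were seen. The patterns of the MuLV and MER lists were corrected once the files showed that they took RLTR41, RLTR48 and MERV1 names. Subfamilies closest to the minimum were MER34 (1.09 RPM) inside and RLTR5_Mm (0.984 RPM) outside it, and copies MERV1_I-int_dup302 (1.11 RPM) inside and MER92B_dup105 (0.960 RPM) outside.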

Additional observations from a re-analysis of the deposited data

Results flagged for a closer look

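The summed RPM of the murine leukaemia virus relatives went in opposite directions with and without crosslinking. Both crosslinked pairs were lower in the pull-down, with ratios of 0.802 and 0.936, and the non-crosslinked pair was higher, with a ratio of 1.07. The difference was not tested, and the crosslinked direction depended on the denominator.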

How the results depend on the processing

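The 13 subfamilies called higher became 20 with TMM factors, 26 with only transposable elements in the table, where fewer rows are tested, and 0 of 132 with no filter (edgeR, 38 at an unadjusted p under 0.05). The count was 12 with the replicate block and 13 with DESeq2, and in each case 11 of the original 13 were among them. The 1 called lower became 0 with DESeq2, with TMM factors and with no filter, 2 with only transposable elements, and 0 to 1 with a library left out. Copies called higher went from 16 to 25 at a minimum of 0.5 RPM, 6 at 2 RPM and 0 of 5890 with no filter (224 unadjusted), 18 with the replicate block and 18 to 19 with a library left out. Copies called lower went from 0 to 2 with unannotated reads in the library sizes, 1 with limma, 2 with the replicate block, and 0 to 3 with a library left out. The share ratio of 1.34 became 0.978 per read of transposable elements, 1.34 within same-numbered pairs and 1.33 to 1.36 with a library left out. The median log2 ratio of 0.33 became 0.29 and 0.24 with pseudocounts of 0.5 and 1 RPM, and 0.31 to 0.41 with a library left out. With the replicate block the calls on MLTR73 (adjusted p = 0.0976), RMER21B (0.0590) and MERV1_I-int_dup33 (0.0574) were lost, and MuLV-int_dup74 (0.0369) and MMERGLN-int_dup223 (0.0470) were called lower. TMM factors moved the median of all rows from -0.21 to -0.00 and that of ERV1 from 0.43 to 0.63. With only transposable elements in the table, ERV1 had a median of 0.43 and all rows 0.71. Of all 30 subfamilies and copies that were called, 23 lost their call only with no filter. The other causes were not tested. Depth limits low values, as 3 reads are worth 0.163 to 0.228 RPM.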

Other observations

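In the authors' deposited table of enrichment ratios, 442 ERV1 features are listed with a median of 1.10, and 53.6% of them are above 1. The authors' deposited table gives medians of 0.992 for ERVK, 1.93 for ERVL, 1.58 for ERVL-MaLR and 1.37 for all 216085 features. RLTR41_dup52 and RLTR41_dup683 have the highest ERV1 ratio in the authors' deposited table, 39.2, followed by RLTR41_dup22 with 38.9. Of the 36 copies tested here, 16 have a ratio in the authors' deposited table, and none of the 16 copies called higher is among them.

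In RPM, all 9 ERV1 lists were higher in the crosslinked inputs than in the single non-crosslinked input, which has no replicate. The ratio of the crosslinked mean to the non-crosslinked value was 1.501 for leukaemia virus relatives, 1.63 for GLN, 1.73 for VL30, 1.79 for MuRRS, 2.04 for the other RLTR elements, 2.06 for MURVY, 2.45 for MER, 2.51 for the subfamilies outside the named groups and 2.76 for numbered LTR elements. Per read of transposable elements these ratios ran from 0.842 for leukaemia virus relatives to 1.55 for numbered LTR elements, with GLN (0.912) and VL30 (0.970) also under 1. With ribosomal RNA left out of the denominator they ran from 1.06 to 1.96 over the same lists.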
